A study of Homo sapiens with 6 samples.

Results

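The genes described here are 34 genes of purine and pyrimidine nucleotide synthesis, chosen by name from knowledge of the pathways and sorted into 8 branches. Earlier results of these data were known when the genes were chosen, so their counts and shares below are descriptions. Of the 62703 genes counted, 17901 passed the expression filter. The 34 genes were taken from these 17901, so all 34 passed by selection. The values come from RNA-seq of 22Rv1, an established human prostate carcinoma cell line that expresses the androgen receptor, in 3 libraries transfected with siCtrl and 3 transfected with siMED12. Cells of both groups received 25 pmol of siRNA with a lipid reagent 24 h after seeding, had their medium changed 6 h later and were harvested 3 days after transfection. The siCtrl siRNA was a pool that targets no gene, and siMED12 was a pool against MED12, part of the kinase module of Mediator, a complex that relays signals from transcription factors to the polymerase. Both pools mix several siRNAs and 1 cell line was used, so the siRNAs cannot be told apart and no other cells are covered.

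Purine nucleotides are built stepwise on phosphoribosyl pyrophosphate (PRPP), made by the PRPS synthetases, until inosine monophosphate (IMP) is complete, and IMP is then turned into AMP or GMP. Pyrimidines are built as a ring first, which is joined to PRPP and then loses a carboxyl group to give uridine monophosphate. The cytidine nucleotides are made from it. One-carbon units carried by folate enter the purine ring and thymidylate, and salvage enzymes return free bases and nucleosides to the nucleotide pool. Dividing tumour cells draw heavily on both routes, and MYC is a known activator of many of these genes.

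The libraries held 16136699 to 17012788 counts, and the mitochondrial share of the counts, 4.43% to 10.1%, grouped by replicate number and not by treatment. MED12, the targeted gene, measured 67.8, 77.7 and 72.6 CPM in siCtrl replicates 1 to 3 and 23.9, 14.97 and 30.1 CPM in siMED12 replicates 1 to 3, and its log2 fold change was -1.66 ± 0.23 (SE, adjusted p = 0.0314 unblocked and 1.52e-16 blocked). The groups did not overlap in MED12, although its call without the block was lost when siCtrl replicate 1, siCtrl replicate 2, siMED12 replicate 1 or siMED12 replicate 2 was left out (adjusted p 0.0818 to 0.186). All 9 luminal prostate markers were detected, with a summed level of 3187 to 3362 CPM in siCtrl and 2720.5 to 2899.9 CPM in siMED12. With replicate number as a block in the fit, 6 of the 9 fell, beside 16.2% of all genes tested, and 2 rose, beside 17.1%. The basal markers KRT5 and KRT14, the leukocyte marker CD3E and the endothelial marker CDH5 were at 0 in every library, and the basal, leukocyte and endothelial lists summed to at most 0.496 CPM. The fibroblast markers COL1A1 and LUM were present, and the list of 4 summed to 25.3 to 38.7 CPM in siCtrl and 26.0 to 41.6 CPM in siMED12.

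After MED12 knockdown most nucleotide synthesis genes stood lower, by a modest amount. CPM below are counts scaled to a common library size by the trimmed mean of M-values (TMM), and log2 fold changes are siMED12 against siCtrl. Of the 34 genes, 29 had a log2 fold change below 0, beside 47.6% of all genes tested, and 5 above 0. The median was -0.32 with a range of -1.05 to 0.46, beside a median of 0.02 over all genes tested. In edgeR's quasi-likelihood test with Benjamini-Hochberg adjustment over all genes, at an adjusted p below 0.05 and with no block, MTHFD1L was the only gene called lower, 1 of 34 beside 0.413% of all genes tested, and 0 were called higher, beside 0.151%. At an unadjusted p below 0.05 the same fit gave 16 lower, beside 7.93% of all genes, and 2 higher, beside 7.65%. Limma called 1 of the 34 lower, beside 0.436% of all genes, and DESeq2's Wald test 13, beside 3.42% of the 14428 genes to which it gave an adjusted p.

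Libraries of the same replicate number varied together, and 21 of the 34 genes fell once replicate number entered the fit as a block, beside 16.2% of all genes, and 2 rose, beside 17.1%. In the following, "fell" and "rose" refer to calls of the blocked fit, and both adjusted p-values are given. All 3 siMED12 libraries lay below all 3 siCtrl libraries for 17 of the 34 genes, beside 10.9% of all genes, and above them for 2, beside 11.2%. In each of the 3 pairs of equal replicate number siMED12 was the lower library for 26 of the 34, beside 27.0% of all genes, and the higher for 3, beside 30.6%. The median difference within a pair was -0.23, -0.36 and -0.24 for replicates 1, 2 and 3. Of the 23 genes called with the block, 18 stayed called in each of the 6 blocked fits that left out a library. The partner of a left-out library then tells nothing about treatment. Each such fit rests on 2 pairs, and the 6 fits are not 6 separate checks. PRPS2, ATIC, UMPS, DTYMK and SHMT1 lost their call in at least 1 of these fits, and all 23 kept their direction.

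**Figure D1:**
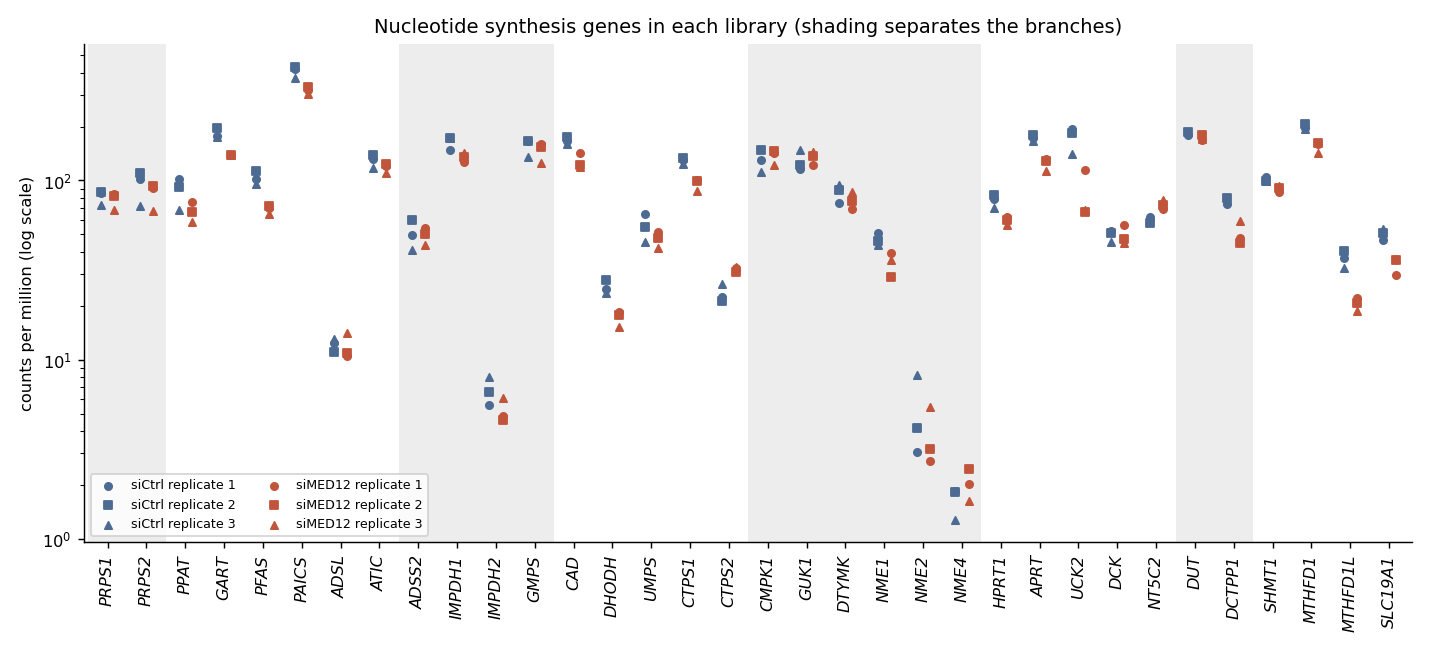
Levels in CPM (log axis) of the 34 genes in each of the 6 libraries, with siCtrl in blue, siMED12 in red, a marker shape for each replicate and shading to separate the branches. The siMED12 points lie below all siCtrl points for 17 genes and above them for 2, CTPS2 and NT5C2.

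**Figure D2:**
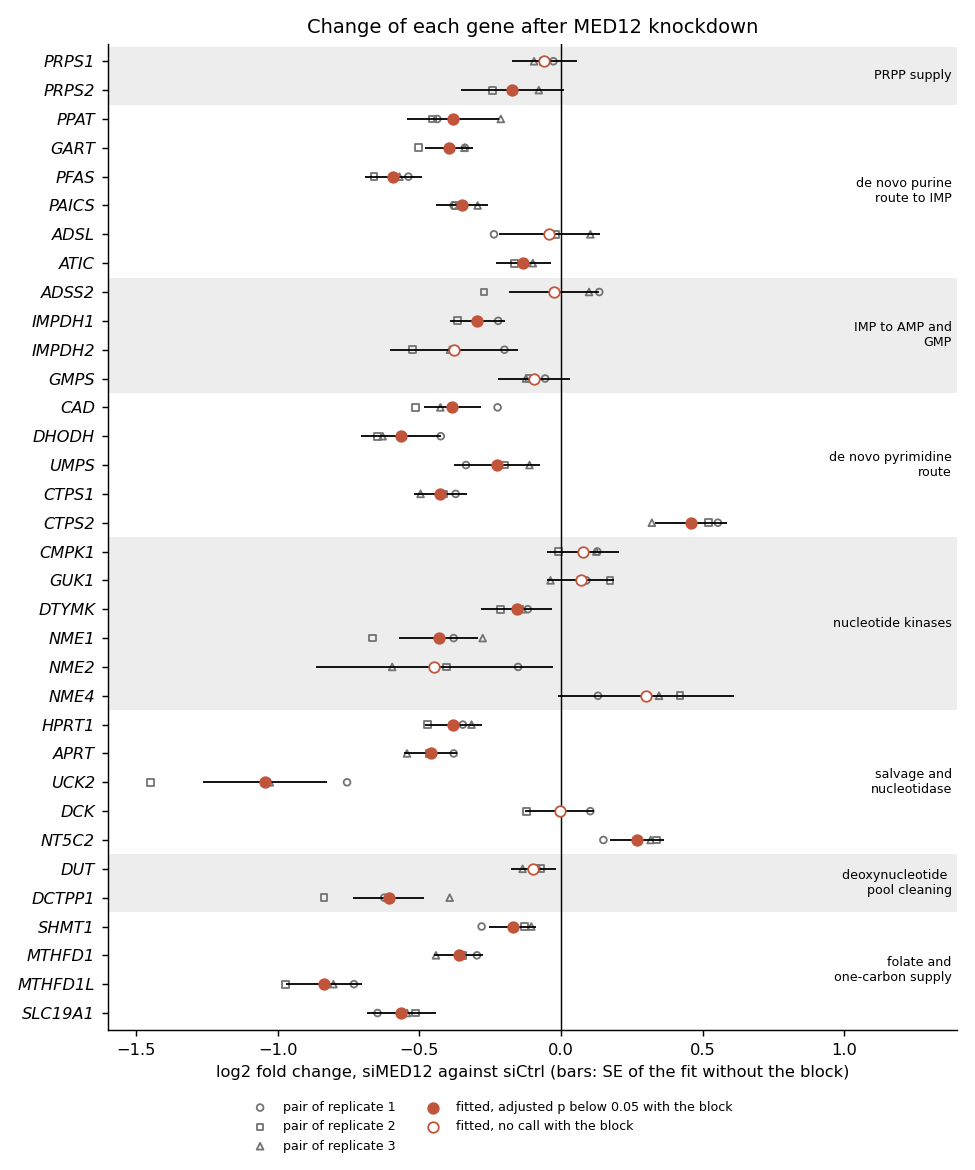
Fitted log2 fold change of siMED12 against siCtrl for each gene (large circles, filled where the blocked fit called the gene, with bars for the SE of the fit without the block) and the difference within each replicate pair (small grey markers). UCK2 at -1.05 and MTHFD1L at -0.84 lie farthest below 0, and CTPS2 at 0.46 lies farthest above.

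Of the PRPP synthetases, which supply the sugar phosphate of both routes, 1 of 2 fell, and by little, beside 16.2% of all genes. PRPS1 measured 85.6, 85.8 and 73.3 CPM in siCtrl replicates 1 to 3 and 83.99, 82.3 and 68.7 CPM in siMED12 replicates 1 to 3. PRPS2 measured 102, 110.2 and 71.7 CPM under siCtrl and 90.6, 93.2 and 67.9 CPM under siMED12. Both genes overlapped between the groups, and replicate 3 was the lowest library of each group for both. The log2 fold change of PRPS1 was -0.06 ± 0.12 (SE, adjusted p = 0.873 unblocked and 0.433 blocked). PRPS2 fell slightly, with a log2 fold change of -0.17 ± 0.18 (SE, adjusted p = 0.731 unblocked and 0.0138 blocked).

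The de novo purine route to IMP fell at 5 of its 6 genes, beside 16.2% of all genes. The median log2 fold change over the 6 was -0.36. PFAS, the synthase that adds a nitrogen from glutamine at the fourth step, had the largest change of the route and measured 102, 113 and 96.2 CPM in siCtrl replicates 1 to 3 and 70.3, 71.7 and 64.8 CPM in siMED12 replicates 1 to 3. Its highest siMED12 library lay below its lowest siCtrl library. The log2 fold change of PFAS was -0.59 ± 0.10 (SE, adjusted p = 0.0508 unblocked and 1.53e-11 blocked). GART, a protein with 3 enzyme activities that includes the first folate-dependent transfer, went from 182 ± 12.1 to 139 ± 0.667 CPM (mean ± SD, n = 3 here and below). The siMED12 libraries of GART were nearly equal, all were under the siCtrl libraries, and the log2 fold change was -0.40 ± 0.09 (SE, adjusted p = 0.0838 unblocked and 6.83e-09 blocked). PAICS, which carries out the carboxylation and the succinocarboxamide step, was the most abundant of the 34 in CPM and went from 407 ± 30.9 to 319 ± 15.1 CPM without overlap. PAICS fell with a log2 fold change of -0.35 ± 0.09 (SE, adjusted p = 0.125 unblocked and 2.50e-09 blocked).

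PPAT, the amidotransferase of the committed first step, went from 87.3 ± 17.4 to 67.1 ± 8.33 CPM. Its groups overlapped, since siCtrl replicate 3 lay under siMED12 replicate 1, but siMED12 was lower in each pair (log2 differences -0.44, -0.45 and -0.21). PPAT fell with a log2 fold change of -0.38 ± 0.16 (SE, adjusted p = 0.311 unblocked and 1.90e-06 blocked). ATIC, the bifunctional enzyme of the last steps to IMP, went from 129.6 ± 10.6 to 118 ± 7.14 CPM, overlapped between groups and fell by less, with a log2 fold change of -0.13 ± 0.10 (SE, adjusted p = 0.587 unblocked and 0.0287 blocked). ADSL, adenylosuccinate lyase, acts both in this route and in the making of AMP, and was the smallest change of the route. ADSL measured 12.3, 11.01 and 13.04 CPM under siCtrl and 10.5, 10.9 and 14.02 CPM under siMED12. Its groups overlapped, the pairs went in different directions, and the log2 fold change was -0.04 ± 0.18 (SE, adjusted p = 0.948 unblocked and 0.814 blocked).

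Among the 4 genes that turn IMP into AMP and GMP, 1 fell, beside 16.2% of all genes. The median log2 fold change was -0.19. IMPDH1, an IMP dehydrogenase at the entry to GMP, measured 148, 173 and 173 CPM in siCtrl replicates 1 to 3 and 127, 135 and 142 CPM in siMED12 replicates 1 to 3. All 3 siMED12 libraries lay below the siCtrl libraries, and the log2 fold change was -0.30 ± 0.10 (SE, adjusted p = 0.196 unblocked and 2.69e-06 blocked). IMPDH2, the second dehydrogenase gene, measured 5.59, 6.64 and 8.05 CPM under siCtrl and 4.87, 4.62 and 6.13 CPM under siMED12. It was lower in each pair but overlapped between groups, and its log2 fold change was -0.38 ± 0.23 (SE, adjusted p = 0.484 unblocked and 0.0837 blocked). The same-strand gene ENSG00000290315 covers 32.8% of the exon bases annotated to IMPDH2, so its level is uncertain. ADSS2, the adenylosuccinate synthase on the branch to AMP, measured 49.3, 60.5 and 40.8 CPM under siCtrl and 54.2, 50.1 and 43.8 CPM under siMED12. The ADSS2 groups overlapped and the log2 fold change was -0.02 ± 0.16 (SE, adjusted p = 0.967 unblocked and 0.887 blocked). GMPS, which aminates XMP to GMP, measured 156 ± 17.7 CPM under siCtrl and 146 ± 18.9 CPM under siMED12, with a log2 fold change of -0.09 ± 0.13 (SE, adjusted p = 0.798 unblocked and 0.102 blocked).

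All 5 genes of the de novo pyrimidine route were called with the block, 4 lower and 1 higher, beside 16.2% and 17.1% of all genes. The median log2 fold change was -0.38. DHODH, the mitochondrial dehydrogenase that forms orotate, measured 24.9, 27.96 and 23.5 CPM in siCtrl replicates 1 to 3 and 18.5, 17.8 and 15.2 CPM in siMED12 replicates 1 to 3. The highest siMED12 value was below the lowest siCtrl value, and DHODH fell with a log2 fold change of -0.57 ± 0.14 (SE, adjusted p = 0.116 unblocked and 6.39e-06 blocked). CAD, the protein of the first 3 steps, went from 167 ± 7.84 to 128 ± 12.97 CPM without overlap, and fell with a log2 fold change of -0.38 ± 0.10 (SE, adjusted p = 0.125 unblocked and 4.97e-08 blocked). UMPS, which attaches the ring to PRPP and removes the carboxyl group, went from 55.1 ± 9.99 to 47.1 ± 4.92 CPM, overlapped between groups, and had a log2 fold change of -0.23 ± 0.15 (SE, adjusted p = 0.541 unblocked and 0.00759 blocked).

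The CTP synthases, which aminate UTP to CTP, went in opposite directions. CTPS1 measured 129.6, 133 and 123 CPM in siCtrl replicates 1 to 3 and 100.2, 99.7 and 87.3 CPM in siMED12 replicates 1 to 3. CTPS2 measured 22.3, 21.4 and 26.5 CPM under siCtrl and 32.7, 30.7 and 33.05 CPM under siMED12. Every siMED12 library was lower than every siCtrl library for CTPS1 and higher for CTPS2. The log2 fold change of CTPS1 was -0.43 ± 0.09 (SE, adjusted p = 0.0874 unblocked and 5.72e-09 blocked). That of CTPS2 was 0.46 ± 0.13 (SE, adjusted p = 0.144 unblocked and 2.14e-05 blocked). The CTPS1 to CTPS2 ratio of CPM was 5.82, 6.22 and 4.65 in siCtrl and 3.07, 3.25 and 2.64 in siMED12, so all siMED12 ratios lay below all siCtrl ratios. The log2 ratio differed by -0.89, with -0.93, -0.94 and -0.82 within the pairs. The two-sided exact permutation test gave p = 0.1, which is the smallest p that 3 against 3 libraries allow (0.4 adjusted over 4 isoenzyme pairs). This test moved libraries freely between groups and, unlike the blocked fit, did not use the replicate pairs. Neither gene shares exon bases with another annotated gene. The log2 ratios of the other 3 isoenzyme pairs overlapped between groups, with differences of 0.10 for PRPS1 to PRPS2 (exact permutation p = 0.5), 0.08 for IMPDH1 to IMPDH2 (exact permutation p = 0.6) and -0.06 for NME1 to NME2 (exact permutation p = 1).

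**Figure D3:**
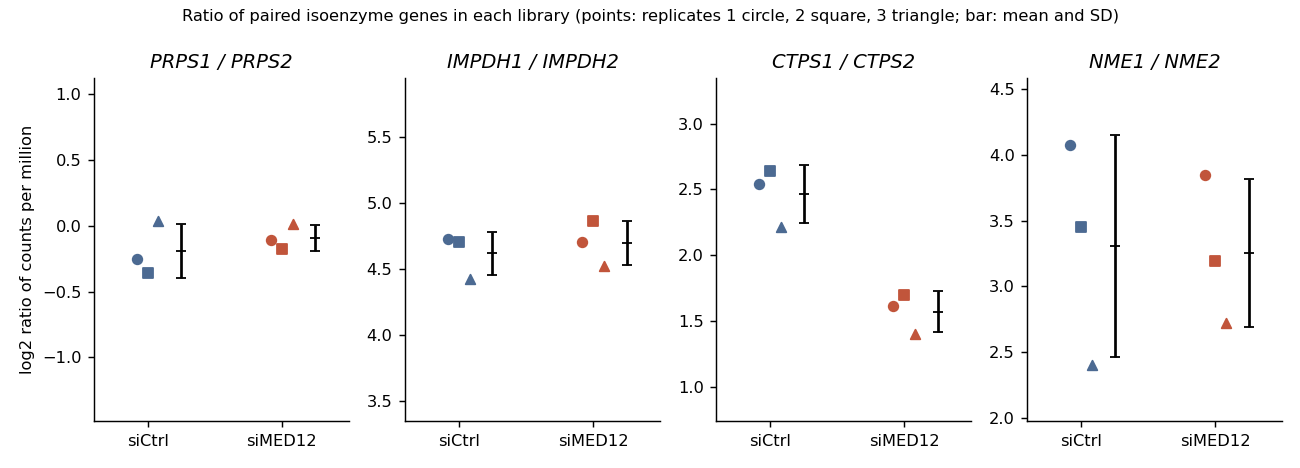
Log2 ratio of CPM of the first to the second gene of 4 isoenzyme pairs in each library (points, shape by replicate) with the mean and SD of each group (bars), each panel spanning the same range in log2 units. The CTPS1 to CTPS2 ratio is lower in all 3 siMED12 libraries than in any siCtrl library, and the other ratios overlap.

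The 6 nucleotide kinases, which raise monophosphates and diphosphates to the next level, had a median log2 fold change of -0.04. Of these 6, 2 fell, beside 16.2% of all genes. NME1, a nucleoside diphosphate kinase, measured 51.05, 45.7 and 43.6 CPM in siCtrl replicates 1 to 3 and 39.3, 28.8 and 35.99 CPM in siMED12 replicates 1 to 3. The siMED12 libraries of NME1 lay below the siCtrl libraries, and the log2 fold change was -0.43 ± 0.14 (SE, adjusted p = 0.190 unblocked and 1.09e-05 blocked). NME2, the neighbouring kinase gene on chromosome 17, measured 3.03, 4.17 and 8.23 CPM under siCtrl and 2.73, 3.16 and 5.45 CPM under siMED12. The spread of NME2 between replicates was wider than the change, its groups overlapped and its log2 fold change was -0.45 ± 0.42 (SE, adjusted p = 0.685 unblocked and 0.104 blocked). A readthrough gene, NME1-NME2, shares 18.7% of the exon bases of NME1 and 24.2% of those of NME2 and held 0 to 6 counts a library, so the levels of NME1 and NME2 are uncertain. NME4, the mitochondrial member of the family, measured 1.84, 1.83 and 1.28 CPM under siCtrl and 2.02, 2.46 and 1.63 CPM under siMED12. It had the lowest level of the 34 genes, overlapped between groups and had a log2 fold change of 0.30 ± 0.31 (SE, adjusted p = 0.724 unblocked and 0.501 blocked).

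DTYMK, the kinase of thymidine monophosphate, went from 86.00 ± 10.2 to 77.2 ± 8.67 CPM, overlapped between groups, and fell slightly with a log2 fold change of -0.16 ± 0.13 (SE, adjusted p = 0.623 unblocked and 0.0226 blocked). CMPK1, which phosphorylates UMP and CMP, measured 129.7 ± 18.1 CPM under siCtrl and 137 ± 13.7 CPM under siMED12, with a log2 fold change of 0.08 ± 0.13 (SE, adjusted p = 0.839 unblocked and 0.199 blocked). GUK1, guanylate kinase, measured 128 ± 17.3 CPM under siCtrl and 135 ± 11.04 CPM under siMED12, with a log2 fold change of 0.07 ± 0.12 (SE, adjusted p = 0.846 unblocked and 0.256 blocked). Neither CMPK1 nor GUK1 passed the test in either fit.

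Salvage held the largest change of the 34. UCK2, the kinase that returns uridine and cytidine to the nucleotide pool, lies at chr1:165827614-165911618, plus strand (GRCh38), and measured 193, 183 and 140.1 CPM in siCtrl replicates 1 to 3 and 114, 67.1 and 68.7 CPM in siMED12 replicates 1 to 3. The siMED12 libraries lay below the siCtrl libraries, with siMED12 replicate 1 above the other two and siCtrl replicate 3 below its group. UCK2 fell with log2 differences of -0.75, -1.45 and -1.03 in the pairs and a fitted log2 fold change of -1.05 ± 0.22 (SE, adjusted p = 0.0808 unblocked and 5.23e-16 blocked). APRT, which salvages adenine, went from 172 ± 6.47 to 125 ± 10.1 CPM without overlap, with a log2 fold change of -0.46 ± 0.09 (SE, adjusted p = 0.0734 unblocked and 2.37e-10 blocked). HPRT1, which salvages hypoxanthine and guanine, went from 77.5 ± 6.47 to 59.5 ± 2.85 CPM without overlap, with a log2 fold change of -0.38 ± 0.10 (SE, adjusted p = 0.133 unblocked and 1.66e-06 blocked). DCK, the deoxycytidine kinase, measured 49.5 ± 3.83 CPM under siCtrl and 49.3 ± 5.97 CPM under siMED12, with a log2 fold change of -0.004 ± 0.12 (SE, adjusted p = 0.992 unblocked and 0.957 blocked).

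NT5C2, a cytosolic nucleotidase that removes the phosphate from IMP and GMP, was the other gene to rise. NT5C2 measured 62.5, 57.6 and 62.4 CPM in siCtrl replicates 1 to 3 and 69.4, 72.9 and 77.7 CPM in siMED12 replicates 1 to 3. All siMED12 libraries lay above the siCtrl libraries, and the log2 fold change was 0.27 ± 0.09 (SE, adjusted p = 0.220 unblocked and 3.72e-04 blocked). CNNM2, on the opposite strand, overlaps 34.8% of the exon bases of NT5C2 and had a log2 fold change of 0.42 in the blocked fit (adjusted p = 1.60e-04). Whether strand was used in counting is not given in the sources used here, and the part of CNNM2 in the rise of NT5C2 was not tested.

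Of the 2 enzymes that keep unwanted deoxynucleotides out of DNA, 1 fell, beside 16.2% of all genes. DCTPP1, a pyrophosphatase of dCTP and its modified forms, measured 73.6, 79.8 and 78.1 CPM in siCtrl replicates 1 to 3 and 47.8, 44.7 and 59.5 CPM in siMED12 replicates 1 to 3. Its groups were apart, and DCTPP1 fell with a log2 fold change of -0.61 ± 0.12 (SE, adjusted p = 0.0785 unblocked and 8.50e-10 blocked). ZNF771 on the opposite strand overlaps 41.2% of the exon bases of DCTPP1, and had a log2 fold change of -0.09 with the block (adjusted p = 0.500). DUT, which hydrolyses dUTP, measured 179, 188 and 187 CPM under siCtrl and 169, 178 and 169.9 CPM under siMED12. The DUT groups did not overlap either, but the difference was small, with a log2 fold change of -0.10 ± 0.08 (SE, adjusted p = 0.626 unblocked and 0.0801 blocked).

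All 4 genes of folate and one-carbon supply fell, beside 16.2% of all genes. All 4 were lower without overlap between groups, beside 10.9% of all genes, and their median log2 fold change was -0.46. MTHFD1L, the mitochondrial formate producer at chr6:150865679-151101887, plus strand (GRCh38), measured 36.8, 40.6 and 32.6 CPM in siCtrl replicates 1 to 3 and 22.2, 20.7 and 18.7 CPM in siMED12 replicates 1 to 3. Each siMED12 library was under every siCtrl library, and the pair differences were -0.73, -0.97 and -0.80. Its log2 fold change was -0.84 ± 0.13 (SE, adjusted p = 0.0449 unblocked and 1.32e-10 blocked). The call without the block was lost whichever of the 6 libraries was left out (adjusted p 0.0511 to 0.251) and without TMM scaling (adjusted p = 0.0595).

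MTHFD1, the cytosolic enzyme of 3 activities that attaches formate to folate, went from 198 ± 6.33 to 154 ± 10.1 CPM, with a log2 fold change of -0.36 ± 0.09 (SE, adjusted p = 0.109 unblocked and 2.16e-08 blocked). SLC19A1, the reduced folate carrier, went from 50.3 ± 3.46 to 34.03 ± 3.77 CPM, with a log2 fold change of -0.56 ± 0.12 (SE, adjusted p = 0.0848 unblocked and 2.05e-08 blocked). SHMT1, the cytosolic serine hydroxymethyltransferase, had the smallest change of the branch and measured 105, 99.6 and 99.5 CPM under siCtrl and 86.5, 91.2 and 92.6 CPM under siMED12. The SHMT1 groups did not overlap, and the log2 fold change was -0.17 ± 0.08 (SE, adjusted p = 0.381 unblocked and 0.00953 blocked).

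Compared per kilobase of annotated exon, the siCtrl levels of the 34 genes spanned a wide range. APRT had the highest level at 95.8 ± 3.604 CPM per kb (mean ± SD, n = 3), followed by PAICS at 54.2 ± 4.11, DUT at 50.2 ± 1.29, DCTPP1 at 49.3 ± 2.05, IMPDH1 at 48.5 ± 4.27 and HPRT1 at 48.1 ± 4.02. The 5 genes after APRT in this order were within their spread of their neighbours. Lowest were NME4 at 0.451 ± 0.0881, ADSL at 1.001 ± 0.0853, IMPDH2 at 1.32 ± 0.240 and NME2 at 2.06 ± 1.09 CPM per kb. Each of these 4 shares 11.1% or more of its exon bases with another gene on the same strand, so its level is uncertain. In all, 10 of the 34 genes have at least 10% of their exon bases in an overlap with another annotated gene. Of the 50-base stretches in the transcripts of PPAT and PAICS, 7.27% and 5.40% also occur in other genes, mostly the pseudogenes PPATP1 and PAICSP4, and reads there could be counted to either copy or lost.

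The CACGTG E-box, the best known binding motif of MYC and of related factors, was searched in RefSeq promoter windows (GRCh38.p14) of 250 bases before to 50 bases after each start site. CACGTG reads the same on both strands. Windows were found for 32 of the 34 genes, all but ADSL and IMPDH2, and 10 of these 32 held the motif in any window (31.2%), beside 12.3% of 11711 genes tested. Counting the first listed window alone, 8 of the 32 held it (25%), beside 10.1%. Of the 10 genes with the motif in any window 9 fell with the block (median log2 fold change -0.40), as did 12 of the 22 without it (median -0.17). By the first listed window the contrast was smaller. There 7 of 8 with the motif fell (median -0.40), as did 14 of 24 without it (median -0.20). Over all tested genes 23.0% of those with the motif in any window fell, beside 17.1% of those without. By the first window these shares were 23.2% and 17.3%. A match describes letters in a window and not a bound site.

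Sites before the start site are shown here for 7 of these genes because they mark which members carry the motif, in the orientation of each gene and with CACGTG in capitals.
ATIC, chr2:215312001-215312030 (plus strand): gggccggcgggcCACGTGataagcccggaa
PPAT, chr4:56435780-56435809 (minus strand): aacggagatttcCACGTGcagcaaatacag
DCK, chr4:70993521-70993550 (plus strand): cgccccggccttCACGTGacctggcgtgcg
MTHFD1L, chr6:150866320-150866349 (plus strand): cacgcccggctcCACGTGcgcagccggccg
MTHFD1, chr14:64388326-64388355 (plus strand): ccagtccctaagCACGTGggttgggttgtc
DCTPP1, chr16:30429792-30429821 (minus strand): ggagggttcctcCACGTGgtcgggaagcgg
DHODH, chr16:72008573-72008602 (plus strand): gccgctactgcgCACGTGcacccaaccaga
The motif began 46 bases before the start site of ATIC, 182 before that of PPAT, 116 before that of DCK, 154 before that of MTHFD1L, 15 before that of MTHFD1, 9 before that of DCTPP1 and 159 before that of DHODH. The 154 bases of MTHFD1L are counted from its first listed start site, and the same site lies at -115 and -1 from other listed start sites. ATIC held a second match 29 bases after its start site, and NME1 and SLC19A1 held theirs 34 and 32 bases after. Further windows of MTHFD1L, SLC19A1 and PAICS held no match. PPAT and PAICS are read in opposite directions from start sites 137 bases apart on chromosome 4. The single site printed for PPAT thus also lies in the PAICS window of that start site. The pair had blocked log2 fold changes of -0.37 and -0.35. DCK, with the motif, had a blocked log2 fold change of -0.01, and UCK2, with the largest change, had no match in its window.

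MYC itself measured 217, 51.7 and 24.3 CPM in siCtrl replicates 1 to 3 and 92.5, 21.3 and 13.02 CPM in siMED12 replicates 1 to 3. Libraries of different replicate number differed more than the treatments did, the groups overlapped, and siMED12 was the lower library of each pair. The log2 fold change of MYC was -1.21 ± 0.89 (SE, adjusted p = 0.586 unblocked and 3.91e-17 blocked). The proliferation marker MKI67 had a log2 fold change of -0.03 ± 0.11 (SE, adjusted p = 0.935 unblocked and 0.527 blocked). PCNA, the sliding clamp of DNA replication, had a log2 fold change of -0.50 ± 0.08 (SE, adjusted p = 0.0515 unblocked and 2.40e-12 blocked). The part of MYC level or of proliferation in the values of the nucleotide genes was not tested, and in bulk RNA fewer cells that express a gene and less RNA per cell cannot be told apart.

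A further 77 genes of nucleotide and one-carbon metabolism were listed by name, and 65 passed the filter. Of these 65, 44 had a log2 fold change below 0, beside 47.6% of all genes tested, and the median was -0.16. With the block 28 fell, beside 16.2% of all genes, and 7 rose, beside 17.1%. Without the block 2 were called lower, beside 0.413% of all genes, and 0 higher, beside 0.151%. PNP, the purine nucleoside phosphorylase that hands free bases to HPRT1, measured 94.8, 112 and 111 CPM in siCtrl replicates 1 to 3 and 50.1, 43.2 and 59.8 CPM in siMED12 replicates 1 to 3. Every siMED12 library of PNP was below every siCtrl library, with a log2 fold change of -1.05 ± 0.14 (SE, adjusted p = 0.0297 unblocked and 4.62e-16 blocked). SLC29A1, the equilibrative nucleoside transporter, measured 98.3, 112 and 102 CPM under siCtrl and 60.2, 54.3 and 68.7 CPM under siMED12. SLC29A1 was also apart between groups, with a log2 fold change of -0.77 ± 0.11 (SE, adjusted p = 0.0410 unblocked and 8.16e-13 blocked).

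By group, 4 of 5 genes of thymidylate synthesis and ribonucleotide reduction fell and 1 rose, 6 of 10 other folate enzymes and carriers fell and 1 rose, and 5 of 5 genes of serine and glycine supply fell. The other nucleotide kinases gave 2 lower and 1 higher of 13, and other salvage enzymes 3 lower and 3 higher of 11. Breakdown and deamination gave 6 lower and 1 higher of 16, and nucleoside transporters 2 lower and 0 higher of 5. The same fit called 16.2% of all genes lower and 17.1% higher, and the kinase counts lie near or below these shares. GCSH, a carrier protein of the glycine cleavage system, went from 14.4 ± 2.38 to 8.79 ± 0.829 CPM with a log2 fold change of -0.72 (adjusted p = 0.123 unblocked and 4.30e-05 blocked). TYMP, thymidine phosphorylase, rose from 13.3 ± 0.512 to 16.2 ± 0.374 CPM with a log2 fold change of 0.28 (adjusted p = 0.372 unblocked and 0.0459 blocked). Same-strand genes overlap 12.1% of the exon bases of GCSH and 19% of those of TYMP, so both levels are uncertain. GMPR, which turns GMP back into IMP, rose from 17.1 ± 2.38 to 20.6 ± 0.907 CPM with a log2 fold change of 0.27 (adjusted p = 0.446 unblocked and 0.0332 blocked).

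The following single genes of these lists were named after their values were seen and form no list of their own. ALDH1L2, a mitochondrial folate enzyme that oxidises formyl groups, went from 145 ± 18.5 to 88.4 ± 12.04 CPM (adjusted p = 0.0644 unblocked and 5.25e-14 blocked). MTHFD2, the dehydrogenase of the same compartment, went from 252 ± 18.3 to 181 ± 13.2 CPM (adjusted p = 0.0750 unblocked and 7.33e-12 blocked), and SHMT2, its serine hydroxymethyltransferase, from 564 ± 31.5 to 430.1 ± 3.65 CPM (adjusted p = 0.0808 unblocked and 1.33e-10 blocked). TYMS, which makes thymidylate, went from 214 ± 5.93 to 170.3 ± 4.67 CPM (adjusted p = 0.108 unblocked and 5.47e-08 blocked), and RRM2, a subunit of ribonucleotide reductase, from 300.5 ± 26.3 to 239 ± 27.8 CPM (adjusted p = 0.215 unblocked and 3.23e-08 blocked). Genes on the opposite strand overlap 47.9% of the exon bases of TYMS and 14.15% of those of MTHFD2. SLC25A32, the mitochondrial folate carrier, measured 5.87 ± 1.09 CPM under siCtrl and 4.58 ± 0.644 CPM under siMED12 and was called in neither fit (adjusted p = 0.521 unblocked and 0.131 blocked). The same-strand gene ENSG00000285982 covers 69.7% of the exon bases annotated to SLC25A32, so its level and the missing call are uncertain. RRM2B, the alternative ribonucleotide reductase subunit, went the other way, from 62.8 ± 11.5 to 69.6 ± 12.4 CPM (adjusted p = 0.759 unblocked and 0.0403 blocked), with overlapping groups.

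**Figure D4:**
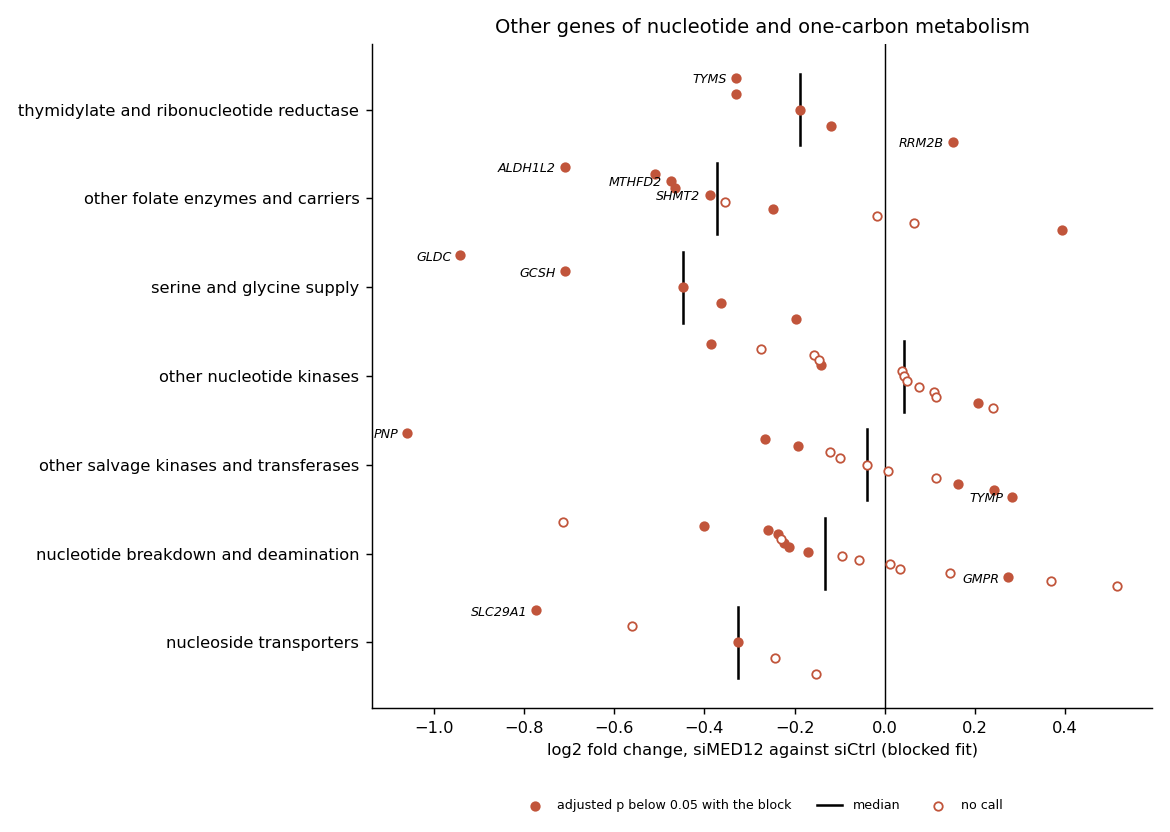
Log2 fold change in the blocked fit of the 65 further genes of nucleotide and one-carbon metabolism that passed the filter, 1 point a gene, filled where called, by list, with the median of each list as a bar. PNP at -1.06 is the lowest point.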

How the data were processed

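RNA-seq of 6 libraries of 22Rv1 cells was analysed, 3 siCtrl and 3 siMED12, grouped by their labels. Poly(A) RNA was made into strand-specific libraries by a service provider. The authors aligned and counted reads with Rsubread against GRCh38.p13 and a Gencode annotation, and deposited raw read counts per gene. The Rsubread version and its settings for strand and for reads with several matches are not given in the sources used here, which limits values of overlapping and near-identical genes. A deposited table of log2 CPM for 17901 genes was used only for the limma alternative, and could be recomputed from the counts with a prior count of 2.

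The deposited counts were tested in R 4.3.3 with edgeR 4.0.16 (expression filter by group, TMM scaling, quasi-likelihood F-test, Benjamini-Hochberg adjustment over all genes tested, threshold 0.05, two-sided). Treatment was the only term, since the study's methods name edgeR and no block. One of its legends nevertheless calls a heatmap of these cells batch-corrected, without saying what the batch was, so the authors' own fit may have held such a term. Standard errors were taken as the fold change over the root of its F statistic. Groups share replicate numbers 1 to 3, and the correlation over genes of their deviations from the group means was 0.532, 0.373 and 0.643 for equal numbers and -0.460 to -0.0233 for unequal ones, so the numbers were taken to pair the libraries and the blocked fit is given beside the main one. The numbers alone come from the labels, and what 1 number shares is not stated. That libraries came from separate cultures is not stated sample by sample, and p-values measure the spread between these samples. No library duplicated another (chi-square per degree of freedom 10.3 to 40.7 within groups). Alternatives used limma 3.58.1, DESeq2 1.42.0, other scalings and filters, and each library left out in turn. The tests were also run on simulated data, in well-counted genes with planted changes larger than most of those reported here. This checks the code and not the power for small changes or low counts.

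The genes and lists were chosen with earlier results of these data known, so their counts are descriptions. Values in every library are given for genes called without the block, for the largest and smallest log2 fold change of each branch and for the isoenzyme pairs, and other genes by mean ± SD. Of the other lists, genes called without the block and up to 3 of the largest changes each way with the block at a mean of at least 10 CPM are named, except 1 that is not reported here. Gene spans, exon lengths and overlaps came from a Gencode annotation of GRCh38 matched by gene ID, and promoter windows from RefSeq. Counts of 21 to 7007 a library stood behind the values of the 34 genes.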

Additional observations from a re-analysis of the deposited data

How the results depend on the processing

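The count of nucleotide synthesis genes called lower depended on the fit more than their direction did. Against 1 called lower (0.413% of all genes) and 0 higher in the fit without the block, the replicate block gave 21 lower (16.2% of all genes) and 2 higher (17.1%). The block with library size only gave 18 lower (13.5%) and 3 higher (21.3%), and the block with DESeq2 size factors, added after the data were seen, 22 (17.1%) and 2 (16.5%). Blocked fits without 1 library each rest on the 2 complete pairs. They gave 18 to 20 lower (11.6% to 14.5% of all genes), 19 without siMED12 replicate 3, and 2 to 2 higher. Without the block, library size only gave 0 lower (0.274% of all genes), DESeq2 size factors 2 (0.447%), the DESeq2 Wald test 13 (3.42%), no filter beyond 1 count 6 (0.852%), a mean of at least 1 CPM 2 (0.725%), and leaving out 1 library 0 to 0 (0 to 0.202%). The newer quasi-likelihood method, also added after the data were seen, gave 1 (0.425%), as did limma (0.436%).

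The median log2 fold change of the 34 genes was between -0.350 and -0.279 in all 22 alternative fits, blocked ones included. With library size only, the branch median of PRPP supply moved to -0.0712 and that of folate supply to -0.421, and ADSS2 (0.0213) and DCK (0.0395) changed sign. Without 1 library, the median of PRPP supply ranged from -0.234 to -0.00478, the pyrimidine route from -0.476 to -0.330, folate supply from -0.520 to -0.442 and the nucleotide kinases from -0.146 to 0.0204, positive without siCtrl replicate 3. In these fits MED12 ranged from -1.90 to -1.45 and lost its call in 4 of 6. Of the 34 genes, 8 changed sign in at least 1 of them. PRPS1 ranged from -0.131 to 0.0291, ADSL ranged from -0.183 to 0.0196, ADSS2 ranged from -0.155 to 0.131, GMPS ranged from -0.188 to 0.0102. CMPK1 ranged from -0.0237 to 0.180, GUK1 ranged from -0.0237 to 0.183, NME2 ranged from -0.801 to 0.0646, DCK ranged from -0.124 to 0.0601. The cause was not tested. Over single genes, 378 of 441 alternative values kept direction and side of the threshold, 41 gained a call, 7 lost one and 15 changed sign.

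The limits are 3 libraries a group from 1 cell line and 1 siRNA pool, changes of a size near the spread between replicates, and a block whose replicate numbers pair the libraries by correlation while what they share is not stated. The median SE of the 34 log2 fold changes was 0.12 without the block and 0.06 with it. Levels are relative to all mRNA in a library.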

Other observations

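The control libraries differed among themselves in some of these genes as much as the knockdown moved them. Between siCtrl replicate 3 and siCtrl replicate 1, 24 of the 34 genes had a log2 ratio below 0, and the median was -0.08. The median over the genes tested with counts in every siCtrl library was -0.02, and their share below 0 was not counted. PPAT had the lowest log2 ratio at -0.58, followed by UMPS at -0.53, NME4 at -0.53, PRPS2 at -0.50 and UCK2 at -0.46. NME2 had the highest at 1.44, followed by IMPDH2 at 0.52. Low counts stand behind NME4 (31 in siCtrl replicate 1 and 21 in siCtrl replicate 3), NME2 (51 and 135) and IMPDH2 (94 and 132). GART, NT5C2 and MTHFD1 hardly differed between these libraries, with log2 ratios of -0.01, -0.0025 and -0.01. These values rest on 1 library each and carry no test.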
